A study of Mus musculus with 4 samples.

Results

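Wnt4, Rspo1 and 6 genes that respond to or modify Wnt signalling were followed in mouse fetal gonads. The members are the 8 genes Wnt4, Rspo1, Lgr5, Sp5, Tnfrsf19, Ccn4, Axin2 and Sostdc1, chosen by the gene symbol of their array probe. Each had 1 probe among the 17664 spots of the array, and 7 of the 8 had values on all 4 arrays; Axin2 had values on 2.

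Gonads freed of the adjacent mesonephroi came from embryos at 12.0 days post coitum. RNA came from XY wild type (+/+), XX wild type (Wnt4 +/+) and XX Wnt4 -/- embryos, with gonads of more than 100 embryos of each kind pooled in several groups before RNA was isolated. On 2 arrays of spotted oligonucleotides XY RNA was hybridised against XX wild type RNA, and on 2 arrays XX Wnt4 null RNA against XX wild type RNA, with the dyes swapped within each pair. Nothing in the labels tells separate extracts from repeat hybridisations within a pair. Errors and p-values therefore rest only on the spread between arrays, which may be technical, and leave out the spread of XX wild type RNA itself. P-values from fits with a dye term also leave out part of the spread between arrays. No label describes which part of Wnt4 is deleted in the null embryos. Pooled whole gonads also hold germ cells, vessels and stroma, so fewer cells of a type and less RNA per cell cannot be told apart.

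Wnt4 encodes a secreted signal made by the supporting cells of the XX gonad. Rspo1 encodes R-spondin 1, a secreted protein that strengthens Wnt signalling by keeping Wnt receptors at the cell surface, and Lgr5 encodes one of its receptors. When the signal is on, beta-catenin enters the nucleus and acts with TCF/LEF factors on target genes. Sp5, Axin2, Lgr5, Tnfrsf19 and Ccn4 are known targets in various tissues, and Sostdc1 encodes a secreted antagonist of BMP and Wnt signals. Loss of Wnt4 or Rspo1 is known to shift the XX gonad partly towards testis traits.

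Below, a value is a log2 ratio to XX wild type RNA, centred on the array's median, so that a negative value means less RNA than in XX wild type gonads. Errors are SD with n = 2 arrays. Ratios carry no absolute level, so members cannot be ranked by abundance and no marker can be said to be absent. The direction is likely but not settled, because no label names the numerator. As deposited, XY replicate 1 and Wnt4 null replicate 1, which share a dye orientation, correlated across 12264 spots at r = -0.62. The arrays of opposite orientation gave -0.0561 for the XY pair and -0.46 for the Wnt4 null pair, and XY replicate 2 with Wnt4 null replicate 2 gave 0.68. Both Wnt4 null columns were used unturned, so these arrays ran against each other over all spots, which bears on the direction of every Wnt4 null value below. XY replicate 1 was turned, because the Y-linked gene Eif2s3y stood there at -2.22 and Xist at 1.67 as deposited, against 2.25 and -1.22 on XY replicate 2. A second Eif2s3y probe does not show this, at -0.64 and -0.46 as deposited. On the Wnt4 null arrays, which compare XX with XX RNA, the first Eif2s3y probe read 1.53 and 0.18 as deposited. Probes were named with the row and column order swapped inside printed blocks. In that numbering, pairs of probes of the same gene in the XY comparison had a rank correlation of 0.31 across 499 genes, against -0.0067 across 467 genes in the deposited numbering. In the Wnt4 null comparison the correlation was 0.13, against 0.0086.

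Sp5 and Tnfrsf19 were the members that stood past 1.5-fold lower on all 4 arrays, and the RefSeq windows at their starts (build GRCm38.p6, 250 bases before to 50 after the start, 5′ to 3′ on the gene's strand) are shown for that reason. Capitals mark words of 7 letters that TCF/LEF factors are known to bind, CTTTG followed by 2 letters of A or T, on either strand (a word on the opposite strand appears as its reverse complement). The Sp5 window lies on the plus strand at chr2:70474673-70474972. Tnfrsf19 has 2 annotated starts on the minus strand, with windows at chr14:61037938-61038237 (inner) and chr14:61046806-61047105 (outer).
Sp5: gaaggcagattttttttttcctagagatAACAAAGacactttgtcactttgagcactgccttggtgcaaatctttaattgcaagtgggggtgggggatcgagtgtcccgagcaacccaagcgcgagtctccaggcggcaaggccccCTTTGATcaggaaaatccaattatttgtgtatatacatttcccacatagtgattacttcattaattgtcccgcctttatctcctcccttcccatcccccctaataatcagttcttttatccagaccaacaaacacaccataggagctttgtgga
Tnfrsf19 inner start: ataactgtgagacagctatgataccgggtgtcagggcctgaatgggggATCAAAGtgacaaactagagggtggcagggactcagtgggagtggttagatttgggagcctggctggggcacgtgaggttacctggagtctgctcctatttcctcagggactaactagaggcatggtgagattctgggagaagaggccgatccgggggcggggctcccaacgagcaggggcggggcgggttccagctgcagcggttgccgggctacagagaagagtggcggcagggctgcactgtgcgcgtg
Tnfrsf19 outer start: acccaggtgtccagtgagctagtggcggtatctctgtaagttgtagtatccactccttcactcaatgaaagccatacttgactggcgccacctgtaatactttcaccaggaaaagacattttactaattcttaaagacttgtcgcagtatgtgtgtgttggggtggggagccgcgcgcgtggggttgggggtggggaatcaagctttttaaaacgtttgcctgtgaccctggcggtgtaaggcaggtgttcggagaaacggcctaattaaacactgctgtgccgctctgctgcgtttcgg

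The Sp5 window held 2 words, CTTTGAT beginning 104 bases upstream of the start and CTTTGTT, on the opposite strand, beginning 222 bases upstream. The inner Tnfrsf19 window held CTTTGAT on the opposite strand, beginning 202 bases upstream, and the outer window held none of the 4 words. The words were also not in the windows of Wnt4, Rspo1 and Axin2. Of 32851 windows of this length in the table, 16.9% held at least 1 word and 1.94% at least 2. A match is a description of the letters only. No windows were available for Lgr5, Ccn4 and Sostdc1, so these genes were not searched.

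Both signal genes were lower in XY than in XX gonads. Wnt4 stood at -1.08 on XY replicate 1 and -1.73 on replicate 2. Rspo1 stood at -2.36 and -1.498. Both arrays of each gene were below 0, and their means were -1.41 ± 0.46 for Wnt4, or 2.65-fold lower, and -1.93 ± 0.61 for Rspo1, or 3.81-fold lower. Among 12264 probes ranked from the lowest XY mean, Rspo1 was at 13 and Wnt4 at 31. Neither passed limma without a dye term (adjusted p = 0.491 for Rspo1 and 0.286 for Wnt4). Both passed limma with a probe-wise dye term (adjusted p = 0.0191 and 0.0241). That term assumes the same dye effect for a probe in both comparisons, so a gap between arrays shared by both pairs leaves the error. P-values with the term therefore do not measure the SD given here. For Rspo1 in XY the standard error was 0.14 with the term and 0.44 without it.

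In XX Wnt4 null gonads neither signal gene showed a loss of that size. Wnt4 itself read -0.08 on replicate 1 and -0.18 on replicate 2, a mean of -0.13 ± 0.07. Its interval without the dye term ran from -0.70 to 0.44. Where the probe lies relative to the deleted part is not known, so this value is no check of the genotype. Rspo1 read -0.65 on replicate 1 and 0.86 on replicate 2. Its arrays lie on opposite sides of 0 and the mean of 0.11 ± 1.06 carries no direction.

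Sp5, a zinc finger transcription factor gene switched on by Wnt signals in many tissues, was lower on all 4 arrays. It stood at -2.13 and -1.77 in XY and at -1.81 and -1.35 in Wnt4 null. The means were -1.95 ± 0.25, or 3.85-fold lower, and -1.58 ± 0.33, or 2.99-fold lower. Ranked from the lowest, Sp5 was at 12 in XY and at 8 in Wnt4 null. With the dye term Sp5 passed in both comparisons (limma adjusted p = 0.0129 in XY and 0.0462 in Wnt4 null), and without it in neither (0.185 and 0.868).

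Tnfrsf19, also called Troy, encodes a receptor of the tumour necrosis factor family. Its 4 values were the most alike of any member, at -1.81 and -1.81 in XY and at -2.03 and -1.67 in Wnt4 null. The means were -1.81 ± 0.0037 and -1.85 ± 0.25, or 3.51-fold and 3.61-fold lower. The close XY pair is 1 pair of arrays; over all probes the median SD between the XY arrays was 0.21. Tnfrsf19 ranked 15 from the lowest in XY and 6 in Wnt4 null. It passed with the dye term in both comparisons (limma adjusted p = 0.0169 and 0.0462), and without it in neither (0.185 and 0.607).

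Lgr5 differed in pattern from Sp5 and Tnfrsf19. On the XY arrays it read 0.30 and -0.08, on both sides of 0, with a mean of 0.11 ± 0.27 and an interval without the dye term from -0.64 to 0.86. On the Wnt4 null arrays it read -1.36 and -2.28, both low. The Wnt4 null mean was -1.82 ± 0.65, or 3.52-fold lower, at rank 7 from the lowest. Lgr5 passed in Wnt4 null with the dye term (limma adjusted p = 0.0462) and not without it (adjusted p = 1.0, unadjusted p = 0.0023). In XY it passed neither way (0.738 with the term).

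Axin2 encodes a scaffold of the complex that destroys beta-catenin and is a widely used Wnt target. It had values only on the second array of each pair, -0.0049 in XY and -0.47 in Wnt4 null. On both of these arrays XX wild type RNA carried Cy5, so a dye effect cannot be told apart from a difference, and Axin2 entered no fit.

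Ccn4 and Sostdc1 lay above 0 on all 4 arrays. Ccn4, a secreted matrix-associated protein gene also called Wisp1, stood at 0.76 and 0.88 in XY and at 0.64 and 1.13 in Wnt4 null. Its means were 0.82 ± 0.09, or 1.76-fold higher, and 0.88 ± 0.35, or 1.85-fold higher. It passed limma with the dye term in XY (adjusted p = 0.0466, against 0.469 without it) and not in Wnt4 null (0.0993 with it).

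Sostdc1 read 2.21 and 2.28 in XY, where its arrays were close. In Wnt4 null it read 1.90 and 0.19, a wide gap. The XY mean was 2.24 ± 0.05, or 4.73-fold higher, at rank 14 from the highest of all probes. In Wnt4 null the mean was 1.05 ± 1.21, and most of it came from replicate 1. Sostdc1 passed in neither comparison with all probes tested (limma adjusted p with the dye term = 0.0507 in XY and 0.330 in Wnt4 null). The XY p lies beside the threshold. The calls of Ccn4 in XY (0.0466) and of Sp5, Tnfrsf19 and Lgr5 in Wnt4 null (0.0462 each) also lie close to it. Settings with the dye term were added after seeing the data. In these the limma adjusted p of Sostdc1 in XY was 0.0119 with centring in printed blocks and 0.0466 with probes averaged per gene. With every column read as Cy3 over Cy5, or as Cy5 over Cy3, it was 0.319. With the columns as deposited Sostdc1 did not pass. Without the term and with all probes tested it had 0.366.

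**Figure D1:**
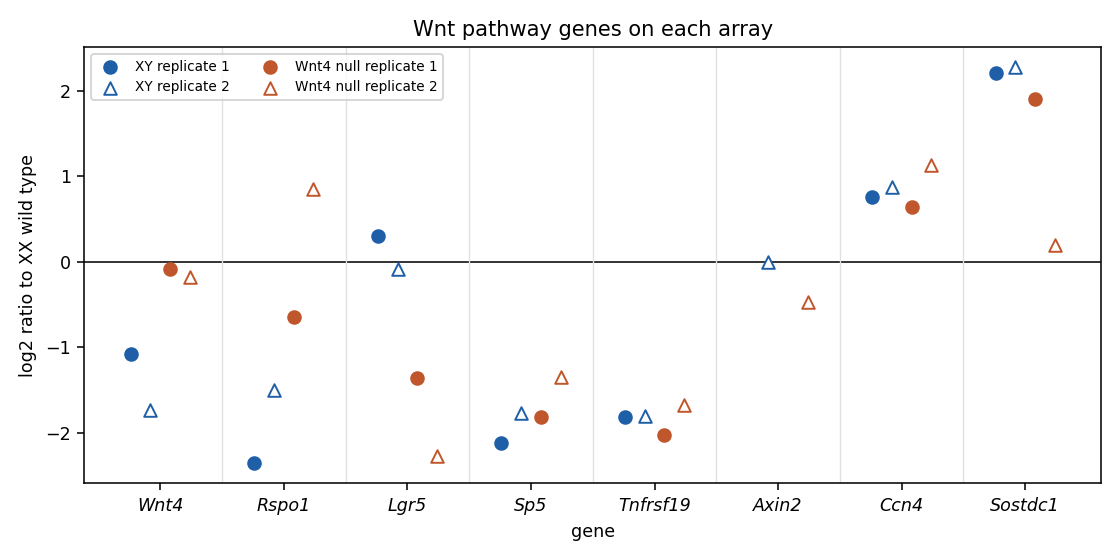
Log2 ratio to XX wild type (y axis) of each gene (x axis) on each array; filled circles are replicate 1, open triangles replicate 2, blue XY and orange Wnt4 null. Sp5 and Tnfrsf19 lie below -1 on all 4 arrays, Wnt4 and Rspo1 lie below -1 on the XY arrays alone, Lgr5 on the Wnt4 null arrays alone, and Ccn4 and Sostdc1 lie above 0 throughout.

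Among the 7 members with values on all 4 arrays, limma with the dye term called 5 in XY, 4 lower and 1 higher, where it called 2.69% of all probes, 1.33% lower and 1.36% higher. In Wnt4 null it called 3 lower and 0 higher, where it called 0.196% of all probes, 0.0652% lower and 0.13% higher. Without the dye term it called 0 members and 0.0% of all probes in both comparisons, with 686 and 354 probes at an unadjusted p under 0.05. By size alone, past 1.5-fold one way on both arrays, 4 members were lower and 2 higher in XY, against 1.32% and 1.37% of probes (2.69% together). In Wnt4 null 3 were lower and 1 was higher, against 0.497% and 0.554% (1.05% together). Past 1.5-fold lower on all 4 arrays were 43 probes, or 0.351%, Sp5 and Tnfrsf19 among them. Past it higher on all 4 were 34 probes, or 0.277%, Ccn4 among them. The members were chosen with earlier results of these data known, so their counts beside these shares are no independent evidence.

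**Figure D2:**
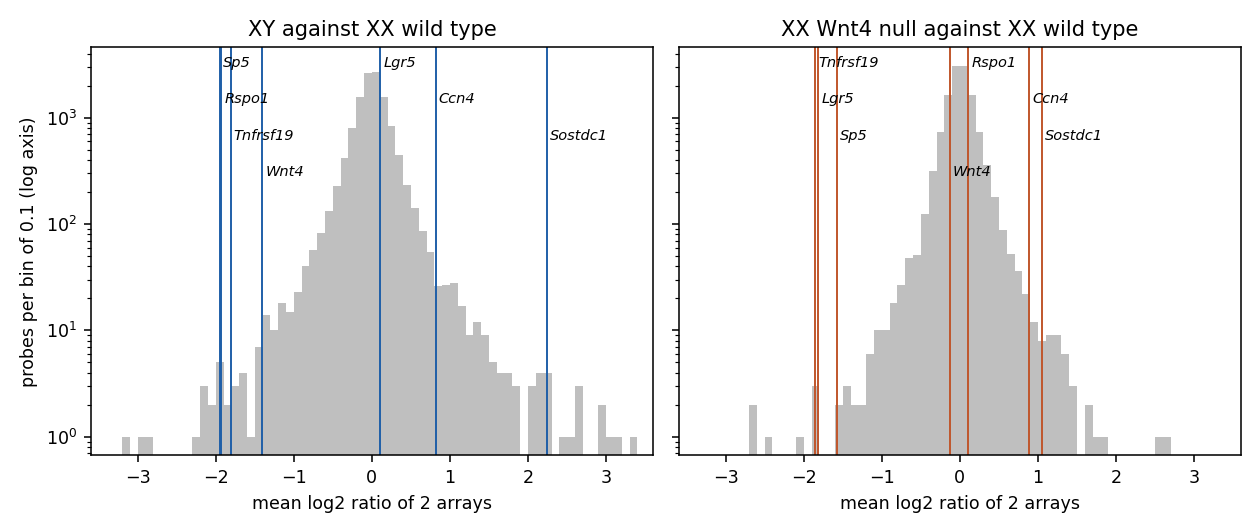
Histograms of the mean log2 ratio of 2 arrays (x axis) for 12264 probes, with counts per bin on a log axis (y axis), for XY and for Wnt4 null; vertical lines mark the 7 members. Rspo1, Sp5, Tnfrsf19 and Wnt4 lie in the lower tail in XY, and Tnfrsf19, Lgr5 and Sp5 in Wnt4 null, while Wnt4 and Rspo1 lie near the centre there.

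The arrays of a pair often differed in sign. Over all probes, 43.7% had the same sign on both XY arrays and 31.8% on both Wnt4 null arrays, and 706 probes passed 1.5-fold in opposite directions in Wnt4 null. Among the members, Lgr5 in XY and Rspo1 in Wnt4 null had arrays of opposite sign. The median SD between the Wnt4 null arrays was 0.28 over all probes and the 95th percentile was 1.09, so the SD of Sostdc1 lay beyond that percentile and that of Rspo1, 1.06, just within it.

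The difference between the comparisons was tested as a contrast in the same fit, since both share XX wild type RNA. Wnt4 and Rspo1 were lower in XY than in Wnt4 null, by a log2 difference of -1.28 (95% interval without the dye term -2.08 to -0.47) and -2.03 (-3.74 to -0.33). Lgr5 was higher in XY than in Wnt4 null, by 1.92 (0.86 to 2.99). None of these passed over all probes. The adjusted p with the dye term was 0.284 for Wnt4 and 0.209 each for Rspo1 and Lgr5, and limma called 0 of 12264 probes with or without the term (0.0%), with 1098 and 197 at an unadjusted p under 0.05.

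For Sp5, Tnfrsf19 and Ccn4 the contrast was closer to 0. Without the dye term it was -0.37 for Sp5 (-1.12 to 0.39), 0.04 for Tnfrsf19 (-0.57 to 0.65) and -0.07 for Ccn4 (-0.77 to 0.63). For Sostdc1 the contrast was 1.19 (-0.49 to 2.88). With the dye term the intervals of Sp5 (-0.72 to -0.0146) and Sostdc1 (0.0066 to 2.38) left out 0, with unadjusted p of 0.0442 and 0.0492 and limma adjusted p of 0.544 and 0.557. Those of Tnfrsf19 (-0.37 to 0.45) and Ccn4 (-0.49 to 0.35) included 0.

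**Figure D3:**
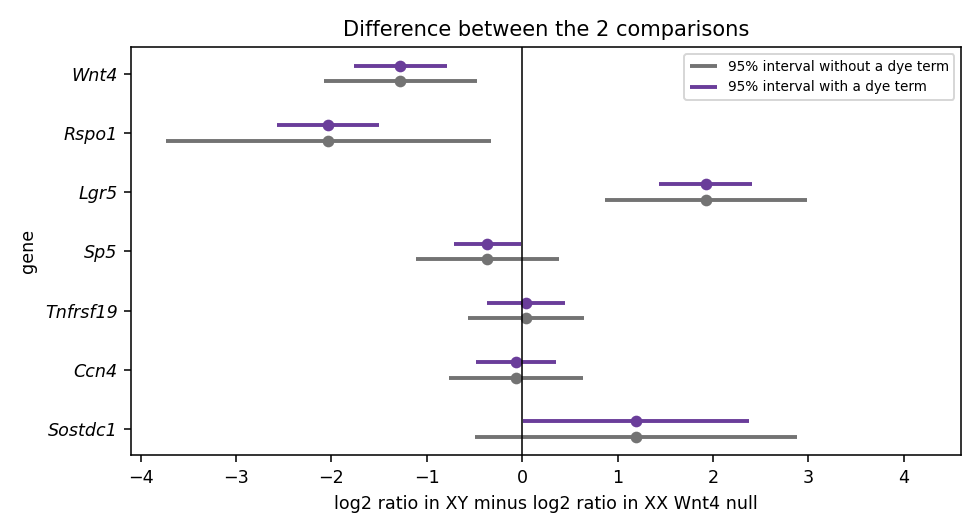
Log2 ratio in XY minus log2 ratio in Wnt4 null (x axis) for the 7 members (y axis); points are estimates and lines 95% intervals, grey without and purple with a dye term. The grey intervals of Wnt4, Rspo1 and Lgr5 leave out 0, those of Sp5, Tnfrsf19, Ccn4 and Sostdc1 include it, and no member passed after adjustment over all probes.

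These patterns depend on the direction of the columns. If every column is read as Cy3 over Cy5, XY stays as given and Wnt4 null replicate 1 alone turns. The Wnt4 null arrays of Sp5, Tnfrsf19, Lgr5 and Ccn4 would then differ in sign, with means of 0.23, 0.18, -0.46 and 0.25. So would those of Sostdc1 and Wnt4, with means of -0.86 and -0.05. Those of Rspo1 would instead come to share a sign, with a mean of 0.75. If every column is read as Cy5 over Cy3, all XY signs turn, so that Sp5 reads 1.95 and Sostdc1 -2.24. With the dye term 0 members were called under either reading.

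Other genes of the pathway were taken from lists of named genes, with probes averaged. Of 22 measured genes of Wnt secretion and signal transduction, limma with the dye term called 0 in either comparison, where it called 3.42% of genes in XY, 1.79% higher and 1.63% lower, and 0.205% in Wnt4 null, 0.143% and 0.0615%. In XY 5 of the 22 and in Wnt4 null 4 had an unadjusted limma p under 0.05 with the term. Over all 9757 named genes 1962 and 1230 did, so these counts alone show no shift of the list. The list's medians were -0.02 in XY and -0.06 in Wnt4 null, beside 0.0032 and 0.0046 over all named genes. Porcn, the enzyme that attaches the lipid Wnt proteins need for secretion, had -0.62 ± 0.06 in XY (limma adjusted p = 0.0595 with the term). Ctnnb1, the gene of beta-catenin itself, had 0.27 ± 0.31 there. In Wnt4 null Tle3, a corepressor that binds TCF/LEF factors, had -0.45 ± 0.25.

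Of 16 other Wnt/beta-catenin target genes measured, limma with the dye term called 1 higher and 0 lower in XY. In Wnt4 null it called 0 either way. Over all named genes it called 1.79% higher and 1.63% lower in XY, and 0.143% and 0.0615% in Wnt4 null. With the term 5 in XY and 2 in Wnt4 null had an unadjusted limma p under 0.05. Over all 9757 named genes 1962 and 1230 did. The called gene was Ccn2, a relative of Ccn4, at 0.12 and 1.25 on the XY arrays (limma adjusted p = 0.0389). Nkd1, a feedback inhibitor of Wnt signalling, had -0.24 ± 0.02 in XY and -0.12 ± 0.06 in Wnt4 null. Notum, a secreted enzyme that inactivates Wnt proteins, had -0.31 ± 0.43 in XY. The medians were 0.08 in XY and -0.02 in Wnt4 null. Of the further R-spondins, receptors and ubiquitin ligases, 0 of 7 had values on all 4 arrays. Rspo2 had 0.01 on XY replicate 2 and 0.03 and 0.66 on the Wnt4 null arrays. Lgr4 had -0.18 and 0.02 on the Wnt4 null arrays.

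Among 8 fetal ovary genes listed as downstream of Wnt4 or Rspo1, 5 were measured. Their place downstream was not tested here. With the dye term all 5 were called lower in XY and Gata2 alone in Wnt4 null. Over all named genes limma with the term called 1.63% lower in XY and 0.0615% lower in Wnt4 null. None of the 5 was called without the term, where the limma adjusted p ran from 0.142 up. The medians were -1.91 and -1.48. Fst, the gene of the activin-binding protein follistatin, had -2.94 ± 0.65 in XY and -2.61 ± 0.58 in Wnt4 null. Irx3, a homeobox gene, had -2.82 ± 1.07 and -2.68 ± 0.02. Msx1, also a homeobox gene, was at -1.76 and 0.42 on the Wnt4 null arrays, on both sides of 0. The list was chosen with earlier results of these data known and is no independent evidence of its direction.

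**Figure D4:**
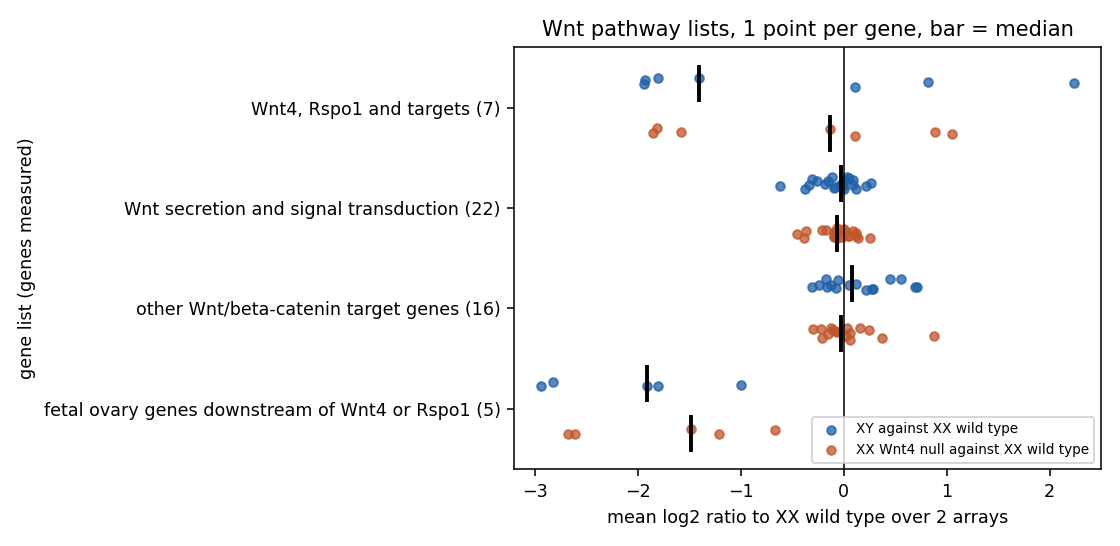
Mean log2 ratio over 2 arrays (x axis) of each gene of 4 groups (y axis), 1 point per gene, blue XY and orange Wnt4 null; black bars are medians. Genes of Wnt secretion and signal transduction lie near 0, the 5 fetal ovary genes lie below -0.6 in both comparisons, and the members spread to both sides.

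The genes with values most like those of a member were found by Euclidean distance over the 4 arrays, among 9757 named genes. Gata2, a zinc finger transcription factor gene, was nearest to Sp5 (distance 0.29), at -1.94 and -1.88 in XY and -1.62 and -1.35 in Wnt4 null. Sp5 and Tnfrsf19 were 0.50 apart, and each was among the 2 genes nearest to the other. Nearest to Wnt4 were Trpc7 (0.37) and Rgs2 (0.46), and nearest to Ccn4 were Egr1 (0.24) and Pdgfra (0.25). Rspo1, Lgr5 and Sostdc1 had no close match. Their nearest genes were Xist at 0.85, Smtnl1 at 1.55 and Cnmd at 1.12.

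Marker lists of cell types gave the following medians. In XY, markers of mesonephric duct and tubule had a median of -0.51 over 7 genes, from -1.46 to 0.29, with 3 called lower with the dye term. Germ cell markers had a median of -0.50 over 7 genes, from -1.35 to 0.34, with 2 called lower. The upper end is Nanog, at -2.75 and 3.44 on the XY arrays, so its mean carries no direction. Of the 7, 6 lay below 0 on both XY arrays. Over all probes 43.7% had the same sign, in either direction, on both XY arrays. Sertoli cell markers had 1.73 over 8 genes, from 0.0043 to 3.18, with 6 called higher. Fgf9, among these 6, read -0.08 and 1.80 on the XY arrays, on both sides of 0. Over all named genes in XY, limma with the dye term called 1.79% higher and 1.63% lower. In Wnt4 null the medians were -0.15 for the mesonephric, -0.08 for the germ cell and 0.32 for the Sertoli cell markers. The Wnt4 null arrays had opposite signs for 5 of 7 mesonephric, 5 of 7 germ cell and 5 of 8 Sertoli cell markers. Over all probes only 31.8% had the same sign on both Wnt4 null arrays, so these counts alone mark no trait of the markers. No marker of any list was called in Wnt4 null, where 0.205% of all named genes were. Macrophage markers had a median of 0.46 over 8 genes in Wnt4 null and -0.03 in XY, endothelial markers 0.11 and 0.25 over 10 genes, steroid-producing cell markers 0.62 and 0.66 over 5 genes (in XY 2 called higher with the dye term and 3 of opposite sign on the arrays), and red blood cell markers 0.03 and -0.10 over 4 genes. Of the gonadal somatic markers, 3 of 6 were measured, with medians of 0.10 in Wnt4 null and -0.04 in XY. The part of any of these in the members' values was not tested.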

How the data were processed

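Log2 ratios of the 2 dyes on 4 two-colour arrays were analysed as deposited by the authors, 1 value per spot, with blanks where no value was given. The values' base is inferred: the lowest value of XY replicate 1, shared by 6 spots, is -6.64, which log2 gives for 0.01, and the same base is assumed for the other arrays. Deposited columns had medians from -0.0388 to 0.0084. Scanner settings, background correction and normalization are not given in the sources used here, and no spot intensities were analysed. The members and lists were chosen with earlier results of these data known.

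Spots were matched to the platform annotation with row and column order swapped inside each printed block of 552 spots; 14010 probes had 1 symbol, 13 several and 3641 spots none, and 13908 matched by Entrez identifier a RefSeq table used for names. XY replicate 1 was turned, arrays were centred on their medians, and the 12264 spots with values on all 4 arrays (of 12866 to 14533 with a value per array) entered 1 limma fit (limma 3.58.1, R 4.3.3; lmFit, eBayes) with a coefficient per comparison. It has 2 residual degrees of freedom per probe, or 1 with the dye term. Benjamini-Hochberg adjustment of the two-sided p-values ran over all probes, and calls are adjusted p under 0.05. The fit was also run on simulated arrays in which all probes had the same spread. That outcome is not given here and is no support for the calls. Named genes are the 8 members, the 2 genes nearest to each, and of each list the 2 highest and 2 lowest with the same sign on both arrays. Some of these are given. Rspo2, Lgr4, Msx1, Fgf9 and Nanog, outside this rule, were named after their values were seen. Other centrings, scaling, directions, missing-value filters, gene averages and left-out replicates were also run. The number of arrays limits the precision.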

Additional observations from a re-analysis of the deposited data

How the results depend on the processing

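With all settings changed 1 at a time and no dye term, limma called 0 of the 7 members in both comparisons. The dye term raised this to 5 members in XY and 3 in Wnt4 null, and the probes called from 0 to 330 and from 0 to 24. Settings added after seeing the data joined it to another choice. With centring in printed blocks 6 and 4 members and 618 and 150 probes were called; with probes averaged per gene 6 and 3 members and 334 and 20 genes. With the dye term and the columns as deposited, as Cy5 over Cy3 or as Cy3 over Cy5, 0 members were called. Without 1 replicate, 0 to 3 probes were called in XY (1 without XY replicate 2, 3 without either Wnt4 null replicate) and 0 in Wnt4 null. Past 2-fold in place of 1.5-fold on both arrays, 118 probes in place of 330 passed in XY and 28 in place of 129 in Wnt4 null.

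With the columns as deposited signs turned in XY for Rspo1 (0.43), Lgr5 (-0.19), Sp5 (0.18) and Tnfrsf19 (0.0026) and for XY minus Wnt4 null of Rspo1 (0.33), Sp5 (1.76) and Sostdc1 (-1.01). Read as Cy5 over Cy3 they turned in XY for Wnt4 (1.41), Rspo1 (1.93), Lgr5 (-0.11), Sp5 (1.95), Tnfrsf19 (1.81), Ccn4 (-0.82) and Sostdc1 (-2.24), in Wnt4 null for Wnt4 (0.0501), Rspo1 (-0.75), Lgr5 (0.46) and Ccn4 (-0.25) and for XY minus Wnt4 null of Wnt4 (1.36), Rspo1 (2.68), Lgr5 (-0.57), Sp5 (2.18) and Sostdc1 (-3.10). Read as Cy3 over Cy5 they turned in Wnt4 null for Sp5 (0.23), Tnfrsf19 (0.18) and Sostdc1 (-0.86) and for XY minus Wnt4 null of Tnfrsf19 (-1.99) and Ccn4 (0.57). With arrays scaled they turned for XY minus Wnt4 null of Tnfrsf19 (-0.20) and Ccn4 (0.0639). A turned column changes sign by construction, and no label settles which direction holds. Under scaling, differences near 0 moved. Without 1 replicate the sign turned in 4 results, with ranges of -0.0813 to 0.30 for Lgr5 in XY, -0.65 to 0.86 for Rspo1 in Wnt4 null, -0.14 to 0.22 for Tnfrsf19 in XY minus Wnt4 null and -0.32 to 0.18 for Ccn4 in XY minus Wnt4 null. The others kept their sign, with ranges such as -2.13 to -1.77 for Sp5 in XY, -2.03 to -1.67 for Tnfrsf19 in Wnt4 null, 0.19 to 1.90 for Sostdc1 in Wnt4 null. Sostdc1 in Wnt4 null rests on replicate 1. The labels give the arrays no replicate numbers, and samples were numbered in accession order. The dye term pairs each XY array with the Wnt4 null array of the same labelled dye orientation. It is a paired analysis only of XY minus Wnt4 null, where 0 members and 0 probes were called. Its counts above test each comparison against 0, where the term takes out a dye effect assumed to be shared. Spots had no intensities here, so signal over background could not be weighed.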
